A study of Rattus norvegicus with 24 samples.

Results

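The Nr4a genes encode 3 orphan nuclear receptors, Nr4a1 (Nur77), Nr4a2 (Nurr1) and Nr4a3 (Nor1). They were selected by symbol, and each has 1 row among the 17711 rows of the FPKM table. FPKM counts the sequenced fragments of a gene per kilobase of its transcript and per mapped fragments of the library. RNA-seq was carried out on the striatum and the whisker follicles of 12 male Sprague-Dawley rats, of which 6 took methamphetamine (MA) by self-administration and 6 took saline (SA), which gives 24 libraries and 6 for each treatment and tissue. MA was given at 0.05 mg/kg per intravenous infusion in daily sessions of 2 h for 16 days, and rats of both groups had a catheter and had been trained to press the lever for food. The exact time of sampling after the last session is not given in the sources used here. Both tissues were sequenced in bulk from polyA RNA, so fewer cells of a type and less RNA per cell cannot be told apart.

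The 3 receptors are transcription factors without a known classical hormone ligand, and their activity is set largely by how much of the protein a cell makes. They are rapid response genes: calcium and cAMP signals act through CREB, MEF2 and SRF on their promoters within minutes. They bind DNA alone, as pairs, or with the retinoid X receptors, which Nr4a1 and Nr4a2 can join but Nr4a3 does not. In the striatum, Nr4a1 is made by medium spiny neurons and responds to dopamine drugs. Nr4a2 is best known for the making and upkeep of midbrain dopamine neurons and is also present in cortex and claustrum, while Nr4a3 is studied in muscle, vessels, blood cells and the brain.

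The promoters of Nr4a1 and Nr4a2 are shown because Nr4a1 was higher in 5 of 6 MA striatum libraries than in any SA library, and Nr4a2 in 0 of 6. At least 5 of 6 were higher for 2.21% of the genes tested in the striatum. The sequences are the 250 bases before the RefSeq start in the GRCr8 assembly, which is not the rn6 build of the expression values. Capitals mark the 5 letters TGACG, the core of the cAMP response element that CREB binds, which read CGTCA where the element lies on the other strand. Nr4a1 lies on the plus strand at chr7:134259888-134260137 and Nr4a2 on the minus strand at chr3:62104888-62105137, and both are written 5′ to 3′ along the gene. Both starts lie inside the RefSeq span of the gene, 12985 bases from its upstream end for Nr4a1 and 11039 for Nr4a2, so each gene has further starts whose promoters are not shown. Nr4a3 is named here without a promoter sequence.
Nr4a1: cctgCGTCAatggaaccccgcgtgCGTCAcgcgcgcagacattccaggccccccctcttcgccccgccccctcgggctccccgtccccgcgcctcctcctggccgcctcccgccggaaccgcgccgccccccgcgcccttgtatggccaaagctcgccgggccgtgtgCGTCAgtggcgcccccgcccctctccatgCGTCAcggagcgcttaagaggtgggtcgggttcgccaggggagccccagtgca
Nr4a2: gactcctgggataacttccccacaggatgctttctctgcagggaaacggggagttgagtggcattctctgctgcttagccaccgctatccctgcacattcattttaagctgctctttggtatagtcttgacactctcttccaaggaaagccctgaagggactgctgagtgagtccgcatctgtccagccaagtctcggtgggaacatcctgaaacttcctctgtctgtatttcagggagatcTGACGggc

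The Nr4a1 window holds 4 of these elements, which begin 246, 226, 82 and 53 bases before the start, all as CGTCA. The Nr4a2 window holds 1, as TGACG, which begins 8 bases before the start. Of 33469 rat promoters of the same length, 18.2% hold at least 1 on either strand and 0.173% hold at least 4. G and C make up 74.8% of the Nr4a1 window and 52% of the Nr4a2 window. The full element TGACGTCA, which contains TGACG on both strands, has no match in either window and is present in 1.59% of promoters. The other motifs searched on both strands were AAAGGTCA, the element that single Nr4a molecules bind (1.24% of promoters), the CArG box of SRF (1.5%) and the MEF2 site (2.96%), and neither window holds a match. The shares over promoters were not matched for G and C content. A match describes letters only, and the relation of the elements to the levels in MA and SA was not tested.

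The tissue labels were checked against marker genes. The summed FPKM of 9 medium spiny neuron markers was 2319 to 5809 in striatum libraries and 2.23 to 25.9 in whisker libraries, and that of 8 hair follicle markers was 3.13 to 24.8 in the former and 27981 to 80157 in the latter. No 2 libraries were identical, and libraries of a group correlated at 0.931 to 0.995 (Pearson's r of log2(FPKM + 1)). Several striatum libraries stood apart in their markers. SA library 1 had 39.9 FPKM of Slc17a7, the vesicular glutamate transporter of cortical neurons, against 0.734 to 1.94 in the other 5 SA libraries, and MA library 3 had 7.97. SA library 4 and MA library 5 had the lowest medium spiny sum, 2319 in each, and also the highest Slc17a6, the transporter of thalamic and midbrain neurons, at 6.82 and 1.35 FPKM. MA libraries 3 and 4 had the highest summed hemoglobin and other erythrocyte genes of the 12, 5662 and 1831 FPKM. In the whisker follicle, SA library 0 stood apart, with a median r of 0.951 to the other 5 SA libraries, which had medians of 0.986 to 0.991. Libraries are named by the index of 0 to 5 in the table, and no source links this index to a rat.

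In the striatum, Nr4a1 and Nr4a3 were several times higher in MA than in SA rats in 5 of 6 MA libraries, and the sixth MA library lay within the SA range for both. Nr4a2 was low in both groups, and 0 of 6 MA libraries lay above every SA library. With all 12 libraries none of the 3 genes was called differentially expressed, that is, none had a Benjamini-Hochberg adjusted p under 0.05 with a fold of at least 1.5 by limma on log2(FPKM + 1). At that rule 0.00943% of the 10607 genes tested in the striatum were called.

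Nr4a1 was the most abundant of the family. In SA striatum its FPKM was 6.44 at the lowest, 10.3 at the median and 26.7 at the highest. In MA striatum the lowest was 8.92, the median 48.4 and the highest 92. MA library 5 was the lowest MA value, below 5 of the 6 SA libraries, while the other 5 MA libraries began at 32.7 and lay above every SA library. The means were 13.9 ± 7.85 FPKM in SA and 47.3 ± 27.3 in MA (± SD, 6 libraries each), a ratio of 3.39, and the mean moved from percentile 68.2 to percentile 89.1 of the genes expressed in the striatum. On the log2(FPKM + 1) scale, where the fold of a gene with a low level comes out smaller, MA exceeded SA by 1.57 (SE 0.47, 95% interval 0.568 to 2.58). This was the fourth largest difference in size among the genes tested. The limma p was 0.00491 and the adjusted p 0.577. An exact two-sided permutation test over the 924 assignments of the libraries gave p = 0.0216, not adjusted over genes.

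Nr4a3 was less abundant and its ratio was larger. In SA striatum the FPKM ran from 0.737 through a median of 0.917 to 2.45. In MA striatum the FPKM ran from 0.835 through a median of 6.37 to 13.9. As for Nr4a1, the lowest MA value was library 5, within the SA range, and the other 5 MA libraries, from 5.55, lay above every SA library. The means were 1.19 ± 0.66 FPKM in SA and 6.67 ± 4.19 in MA (± SD, 6 libraries each), a ratio of 5.6, and the mean moved from percentile 27.8 to 52.5. The difference was 1.62 (SE 0.38, 95% interval 0.794 to 2.45) on the log2(FPKM + 1) scale, with a limma p of 0.000965 and an adjusted p of 0.577. The exact permutation p was 0.00866. By unadjusted p Nr4a3 stood at rank 11 of the 10607 genes, and 8.26% of these genes had an unadjusted p under 0.05. Of all genes tested in the striatum, 2.21% had at least 5 of 6 MA libraries above every SA library, and 0.198% had all 6.

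Nr4a2 was close to the lower end of what was tested. In SA striatum its FPKM was 0.462 at the lowest, 0.659 at the median and 4.92 at the highest. In MA striatum the values were 0.59, 0.816 and 1.25. The SA maximum was library 1, the library with the high Slc17a7, and the groups overlapped throughout. The means were 1.42 ± 1.75 FPKM in SA and 0.853 ± 0.231 in MA (± SD, 6 libraries each), with a difference of -0.17 (SE 0.30, 95% interval -0.814 to 0.465, limma adjusted p = 0.893) on the log2(FPKM + 1) scale. The direction rested on SA library 1. Without it the SA mean was 0.715 ± 0.37 FPKM (n = 5), MA was higher by 0.13 on the same scale, and the exact permutation p was 0.377.

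**Figure D1:**
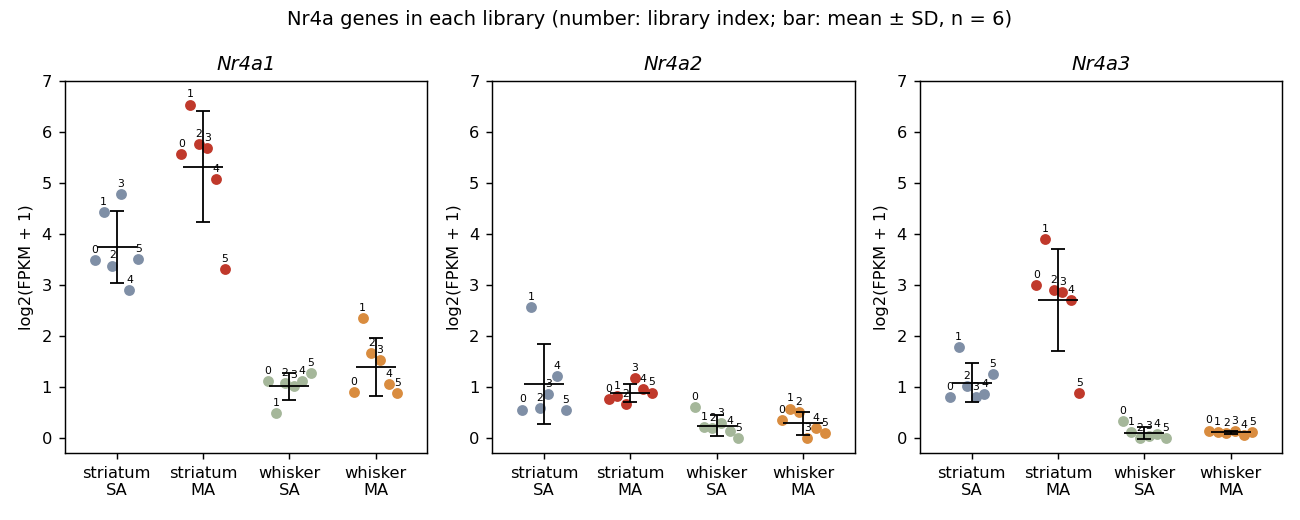
Level of each Nr4a gene in the 24 libraries as log2(FPKM + 1), grouped by tissue and treatment, with points numbered by library index and black bars for the mean ± SD (n = 6). In the striatum 5 of 6 MA libraries lie above every SA library for Nr4a1 and Nr4a3, MA library 5 lies among the SA libraries, and SA library 1 stands alone for Nr4a2.

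The outcome for Nr4a3 depended on MA library 5. Without it, the Nr4a3 mean in MA was 7.84 ± 3.43 FPKM (n = 5), the ratio to SA was 6.58, and MA exceeded SA by 1.99 on the log2(FPKM + 1) scale with a limma adjusted p of 0.00514, so that Nr4a3 was called, as were 0.0378% of the genes in that fit. Nr4a1 without this library had a mean of 55.0 ± 22.2 FPKM in MA, a ratio of 3.94 and a difference of 1.98 on the log2 scale with an adjusted p of 0.0961. The exact permutation p without the library was 0.00216 for Nr4a3 and 0.00433 for Nr4a1. Leaving out any other single library moved the difference of Nr4a1 to between 1.33 and 1.78 and that of Nr4a3 to between 1.38 and 1.76, with adjusted p from 0.21 to 0.929. No reason in the labels sets library 5 aside, and its removal was chosen as 1 of 12.

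**Figure D2:**
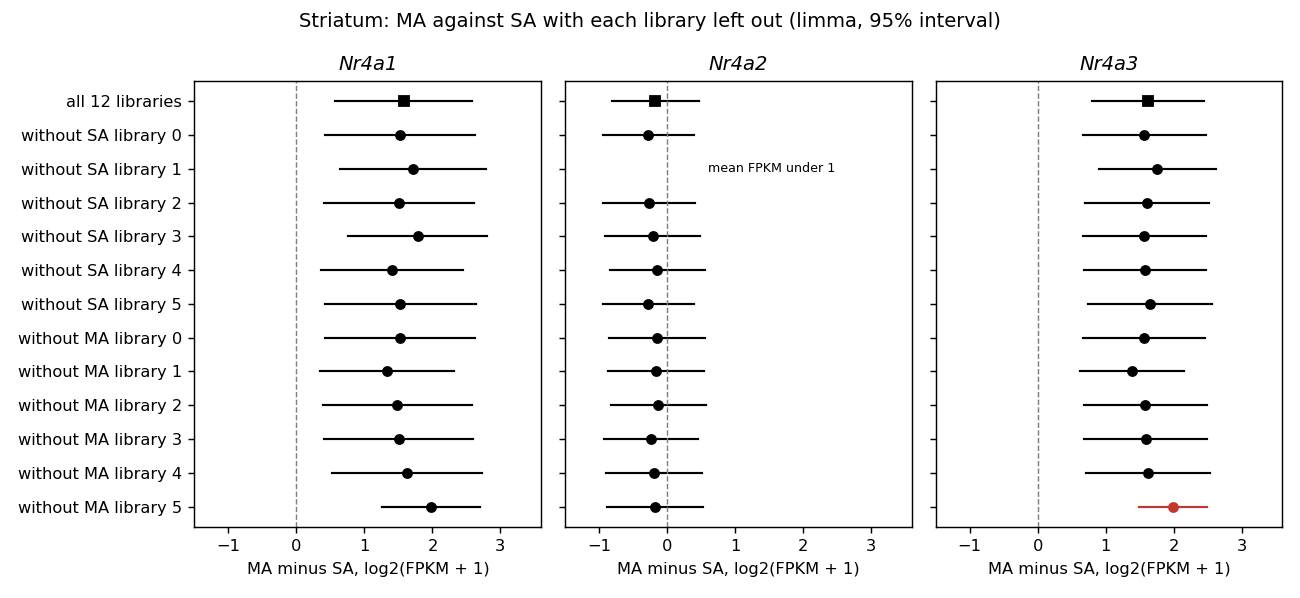
Difference of MA from SA in the striatum on the log2(FPKM + 1) scale for each Nr4a gene, with all 12 libraries (square) and with each library left out (circles), where lines are 95% intervals from limma and red marks a called gene. Nr4a1 stays between 1.33 and 1.98 and Nr4a3 between 1.38 and 1.99, the latter being called without MA library 5, and Nr4a2 falls under the mean FPKM of 1 needed for the test without SA library 1.

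MA library 5 had the lowest medium spiny neuron marker sum of the MA libraries, so the Nr4a levels were set beside that sum. The sum itself was 2319 to 5809 FPKM over the SA libraries, with a median of 4673, and 2319 to 5478 over the MA libraries, with a median of 4712, and 0 of the 9 markers, which include Drd1, Tac1, Rgs9 and Pde10a, had an unadjusted limma p under 0.05. Per 1000 FPKM of these markers, Nr4a1 was 1.77 to 8.78 in SA (mean 3.52 ± 2.66) and 3.85 to 16.8 in MA (mean 9.99 ± 4.17), with 4 of 6 MA libraries above the highest SA library and an exact permutation p of 0.00649. Nr4a3 per 1000 FPKM of the markers had a mean of 0.277 ± 0.103 in SA and 1.4 ± 0.702 in MA (± SD, 6 libraries each), with 5 of 6 MA libraries above SA and an exact permutation p of 0.00433. MA library 5 remained the lowest MA library on this scale, at 3.85 for Nr4a1 and 0.36 for Nr4a3. Nr4a2 on this scale gave an exact permutation p of 0.792. With the marker score as a covariate the limma differences of Nr4a1 and Nr4a3 were 1.58 and 1.62 on the log2(FPKM + 1) scale, with adjusted p of 0.288 and 0.252. Without the 4 libraries lowest in these markers (SA libraries 3 and 4, MA libraries 4 and 5), Nr4a1 was called, with a difference of 2.19 and an adjusted p of 0.0401, and Nr4a3 was not, with 1.95 and 0.0674. In that fit 0.0284% of the genes were called. The libraries left out hold the lowest MA values of both genes, in MA libraries 4 and 5. They also hold the highest and the lowest SA value of Nr4a1, in SA libraries 3 and 4. The part of the markers in the Nr4a1 call was not tested apart from these values.

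**Figure D3:**
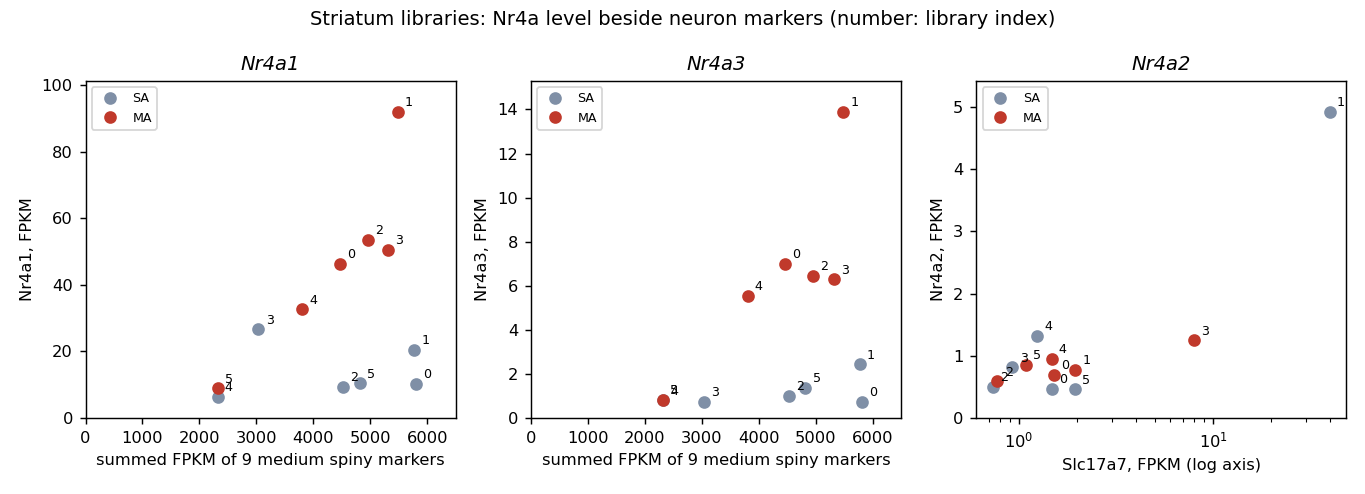
FPKM of Nr4a1 and Nr4a3 against the summed FPKM of 9 medium spiny neuron markers, and FPKM of Nr4a2 against Slc17a7 on a log axis, in the 12 striatum libraries numbered by index. MA library 5 and SA library 4 share the lowest marker sum, 2319 FPKM, with Nr4a1 at 8.92 and 6.44, and SA library 1 is highest in both Slc17a7 (39.9) and Nr4a2 (4.92).

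Most microglial, endothelial, blood and fibroblast markers tested had a difference above 0 in favour of MA in the striatum, and 0 of them were called. All 8 microglia markers lay above 0 on the log2 scale (median difference 0.48), among them Tmem119 at 17.5 ± 2.89 FPKM in SA and 28.6 ± 8.45 in MA. An unadjusted p under 0.05 was found for 3 of them, or 37.5%, against 5.38% of all genes with the higher value in MA. The microglia sum was 249 to 384 FPKM in SA and 212 to 636 in MA, and 0 of its markers were absent. MA library 1 had the lowest microglia sum of the 12, 212 FPKM, and the highest Nr4a1 and Nr4a3. MA library 5, with the lowest MA values of both, had a sum of 609. MA library 4 had the highest sum, 636 FPKM, with Nr4a1 at 32.7 and Nr4a3 at 5.55 FPKM, both above every SA library. All 8 endothelial markers (median 0.24, summed FPKM 101 to 172 in SA and 94.9 to 265 in MA) and all 4 erythrocyte markers tested (median 1.12, 354 to 903 in SA and 631 to 5662 in MA) also lay above 0, as did 5 of 6 fibroblast markers tested (median 0.35) and 5 of 5 leukocyte markers (median 0.67). The part of these cells in the Nr4a levels was not tested. Without MA libraries 3 and 4, the highest in erythrocyte genes, the differences of Nr4a1 and Nr4a3 were 1.55 and 1.58 on the log2(FPKM + 1) scale, with an unadjusted limma p of 0.0183 and 0.00576 and an adjusted p of 1 in each case.

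The family was compared with other rapid response genes. Of 31 such genes, which include Fos, Egr and Dusp family members and leave out the Nr4a genes, 29 were tested in the striatum and 28 had a difference above 0 in favour of MA on the log2(FPKM + 1) scale. The median difference was 0.48 on this scale, while over all genes tested it was 0.00 and 50.5% lay above 0. None was called, and 16 had an unadjusted p under 0.05 with the higher value in MA, or 55.2% of the list, against 5.38% of all genes. The smallest p values belonged to Fosl2, a partner of Jun in AP-1, at 2.41 ± 0.859 FPKM in SA and 11 ± 6.4 in MA (log2 difference 1.64), to Junb, another AP-1 subunit, at 32.4 ± 11.1 and 65.2 ± 27.5 (0.95), to Dusp5, a phosphatase that ends ERK signaling, at 1.39 ± 0.267 and 3.08 ± 1.34 (0.70), and to Arc, a synaptic protein, at 27.1 ± 11.7 and 65.9 ± 29.4 (1.19). The limma adjusted p of these 4 was 0.577 (± SD, 6 libraries each). The paper used another test, Cuffdiff, at a false discovery rate under 0.05 and a fold of at least 1.5. It reported Fosl2, Junb, Arc and Fosb as raised in the striatum of MA rats, and Per1 and Ddit4 as raised in both tissues. The paper also states that key genes were checked by Western blot and RT-PCR. The differences of Nr4a1 and Nr4a3, 1.57 and 1.62, were above those of all of the list but Fosl2.

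The library that was low for Nr4a1 and Nr4a3 was low for the list as well. In MA libraries 0 to 4, between 11 and 20 of the 29 rapid response genes lay above every SA library, with median differences from the SA mean of 0.43 to 1.09 on the log2(FPKM + 1) scale. In MA library 5 the count was 1 of 29, with 24 within the SA range, 4 below it and a median difference of -0.07. The share over all genes was not taken for single libraries, so these counts only set the libraries beside each other. Without MA library 5, 17 genes of the list had an unadjusted p under 0.05 with the higher value in MA. Without MA libraries 3 and 4 the count was 10. Over all genes the counts hold both directions, unlike those of the list, and were 913 of 10593 and 403 of 10564 in these fits. With all 12 libraries the count over all genes was 876 of 10607, with 571 of them higher in MA.

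**Figure D4:**
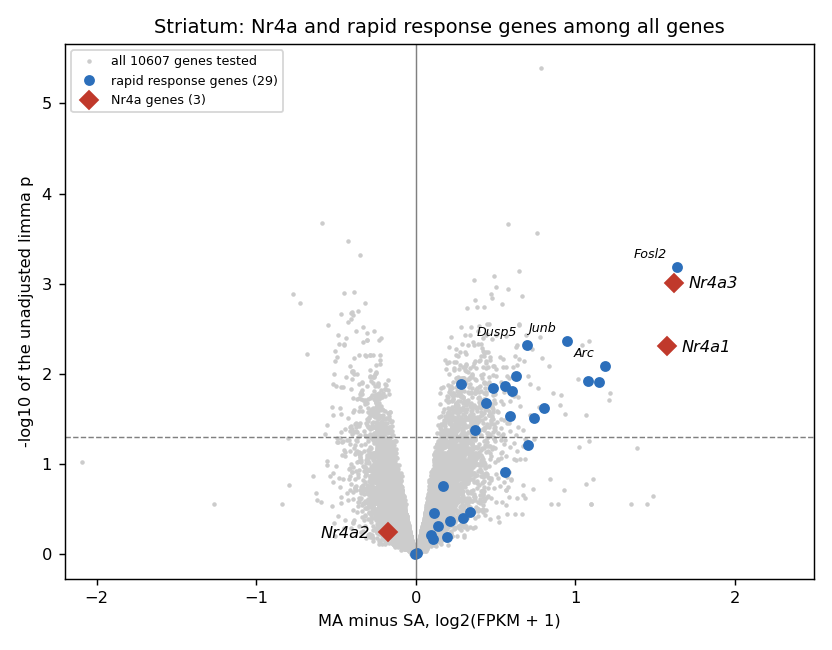
Difference of MA from SA in the striatum on the log2(FPKM + 1) scale against -log10 of the unadjusted limma p for all 10607 genes tested (grey), 29 rapid response genes (blue) and the 3 Nr4a genes (red), with a dashed line at 0.05. Nr4a1 and Nr4a3 lie at the right edge beside Fosl2, and Nr4a2 lies near 0.

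The factors that act on the Nr4a promoters were followed as a list. Of 18 genes of CREB, MEF2, SRF and their regulators tested, 10 lay above 0 (median 0.02 on the log2 scale). With an unadjusted p under 0.05, 0 had the lower value in MA and 3 the higher (16.7% of the list, against 5.38% of all genes). These were Crem, a CREB relative that includes a repressor form, at 4.12 ± 0.261 FPKM in SA and 5.38 ± 0.719 in MA, Hdac5, a deacetylase that binds MEF2, at 46.8 ± 2.63 and 57.2 ± 10.1, and Srf at 21.8 ± 4.72 and 29.9 ± 5.67 (± SD, 6 libraries each). Each had 5 of 6 MA libraries above every SA library, and 2.21% of all genes tested had at least 5. The 3 were named for their p in the same comparison, and the limma adjusted p was 0.577 in each case. Atf1, a CREB relative with the next smallest p, was 8.89 ± 1.08 and 7.93 ± 0.621 FPKM.

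Of the 3 retinoid X receptors, the partners of Nr4a1 and Nr4a2, 0 had an unadjusted p under 0.05. Rxrg, the striatal form, was 40.9 ± 16.6 FPKM in SA and 40.9 ± 14.6 in MA, Rxrb 34.5 ± 3.33 and 33.7 ± 2.37, and Rxra 7.14 ± 0.714 and 8.19 ± 1.15 (± SD, 6 libraries each). The limma adjusted p was 0.641 or higher, and the 95% interval of the difference was widest for Rxrg, with an SE of 0.32 on the log2 scale.

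Among 22 other nuclear receptors tested, 16 lay above 0 with a median of 0.10 on the log2 scale. An unadjusted p under 0.05 was found for 4 with the higher and 2 with the lower value in MA, together 27.3% of the list, against 8.26% of all genes. The higher ones alone were 18.2%, against 5.38% of all genes. Esrrg, an orphan receptor of energy metabolism, was 3.55 ± 1.04 FPKM in SA and 2.18 ± 0.549 in MA. Nr2e1, a receptor of neural stem cells, was 6.99 ± 1.93 and 10.3 ± 3.12, Rorb 1.97 ± 0.487 and 2.82 ± 0.687, and Nr2f6 21.3 ± 3.26 and 26.6 ± 5.23 (± SD, 6 libraries each). The limma adjusted p of these 4 was 0.577 to 0.597, and each differed by less on the log2(FPKM + 1) scale, by 0.50 at most, than Nr4a1 and Nr4a3.

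Genes known as targets of the receptors in other tissues were partly expressed in the striatum. Of 9 dopamine neuron genes linked to Nr4a2, 5 passed the filter and 0 had an unadjusted p under 0.05. Aldh1a1, a retinaldehyde dehydrogenase, was 7.37 ± 2.95 FPKM in SA and 11.6 ± 6.15 in MA, Ret, the receptor subunit for glial neurotrophic factors, was 1.38 ± 1.05 and 0.953 ± 0.62, and Slc18a2, the vesicular monoamine transporter, was 2.94 ± 0.995 and 2.63 ± 0.161. Of 5 tested glucose metabolism genes linked to Nr4a1 and Nr4a3, Pygm, muscle glycogen phosphorylase, was 27.6 ± 3.25 and 40.7 ± 12.3 FPKM (limma adjusted p = 0.577). Bpgm, which makes bisphosphoglycerate and is abundant in erythrocytes, was 67 ± 3.22 and 75.4 ± 7.81 (limma adjusted p = 0.603, ± SD, 6 libraries each).

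Glucocorticoid-induced genes, which respond to stress hormone, were also mostly above 0, at 11 of 13 with a median of 0.41 on the log2 scale. An unadjusted p under 0.05 was found for 4, all higher in MA, or 30.8% of the list, against 5.38% of all genes. The 4 were Ddit4 (46.3 ± 8.31 FPKM in SA and 75.6 ± 25 in MA), Mt2A (16.7 ± 5.91 and 29.7 ± 12.9), Per1 (13.8 ± 2.24 and 22.7 ± 7.88), which is counted among the rapid response genes too, and Sgk1 (26.7 ± 4.51 and 42.6 ± 21.3), with a limma adjusted p of 0.577 to 0.596 (± SD, 6 libraries each). The median of the list was 0.04 without MA libraries 3 and 4, and the part of these libraries in it was not tested.

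Across libraries, Nr4a1 and Nr4a3 moved together in MA striatum. Within the 6 MA libraries Pearson's r of log2(FPKM + 1) was 0.986 (exact permutation p = 0.00694, adjusted p = 0.0833 over 12 relations, the 3 pairs in 4 groups) and Spearman's rho was 0.829 (exact permutation p = 0.0583, adjusted p = 0.7). Without the 2 libraries farthest from the median of Nr4a1, MA libraries 5 and 1, r was 0.735. Within the 6 SA libraries r was 0.311 (exact permutation p = 0.59) and rho -0.029. The relation in MA thus rested in part on 2 libraries, and since the treatments lay apart an r over both is not used here. Nr4a2 followed neither gene in MA, with r of -0.13 with each. In SA, its r of 0.776 with Nr4a3 (exact permutation p = 0.128) came to -0.555 without libraries 1 and 4. In the whisker follicle the lowest p was that of Nr4a2 with Nr4a3 in SA (r 0.883, exact permutation p = 0.0444, adjusted p = 0.267), which rests on 0 to 7 sequenced fragments per library.

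The genes most like each member over the 12 striatum libraries were named by Pearson's r after each treatment's mean was removed from log2(FPKM + 1). For Nr4a1 these were Egr2 (0.966), a rapid response zinc finger factor, Slc25a25 (0.922), a mitochondrial carrier of adenine nucleotides, Arc (0.902), Per1 (0.899), a clock gene, and Egr4 (0.876). For Nr4a3 they were Fosl2 (0.976), Per1 (0.951), Nrep (0.942), Arpc5 (0.937), a subunit of the actin-branching Arp2/3 complex, and Ubfd1 (0.928). Without the farthest library of each member, MA library 5 in both cases, these r were 0.718 to 0.935 for Nr4a1 and 0.818 to 0.936 for Nr4a3. Per1 was common to both.

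For Nr4a2 the 5 genes were Ntng2 (0.941), a netrin-G of cortical and claustral neurons, Cck (0.925), a neuropeptide abundant in cortex, Slc17a7 (0.892), Rtn4r (0.869), the Nogo receptor, and Ehd3 (0.845). Without SA library 1 these r were 0.748, 0.697, 0.578, 0.857 and 0.642. In this library Neurod6 and Tbr1, transcription factors of cortical excitatory neurons, were 3.67 and 2.12 FPKM, and in the other 5 SA libraries at most 0.396 and 0.932. The summed cortical and claustral markers were 13.7 to 75.5 FPKM in SA and 15.4 to 30.9 in MA. Their part in the Nr4a2 level was not tested beyond leaving the library out. These r share libraries and are descriptions.

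In the whisker follicle the family was expressed at a low level. Nr4a1 was 0.401 FPKM at the lowest, 1.13 at the median and 1.41 at the highest in SA, and 0.837, 1.49 and 4.09 in MA. The groups overlapped, with 3 of 6 MA libraries above every SA library. The means were 1.05 ± 0.341 FPKM in SA and 1.83 ± 1.24 in MA (± SD, 6 libraries each), and MA exceeded SA by 0.38 on the log2(FPKM + 1) scale (SE 0.25, 95% interval -0.146 to 0.914, limma adjusted p = 0.488). The exact permutation p was 0.16. Without MA library 1, which had the 4.09 FPKM, the difference was 0.19 (adjusted p = 0.728). At the adjusted threshold 0% of the 9138 genes tested in this tissue were called, and 10.4%, or 953 genes, had an unadjusted p under 0.05, 5.25% with the higher value in MA. A single library decided the count for the tissue, since without SA library 0 1219 of 9059 genes (13.5%) were called. Nr4a1 was not called there, with a difference of 0.40 and an adjusted p of 0.263. With libraries weighted by their quality, 1160 genes (12.7%) were called and Nr4a1 was not, with a difference of 0.22 and an adjusted p of 0.456.

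Nr4a2 and Nr4a3 did not reach the mean of 1 FPKM needed for the test in this tissue, with means of 0.213 and 0.0768 over its 12 libraries. Nr4a2 was 0 to 0.524 FPKM in SA (mean 0.191 ± 0.179) and 0 to 0.495 in MA (mean 0.235 ± 0.197), with an exact permutation p of 0.706 (± SD, 6 libraries each). Nr4a3 was 0 to 0.256 FPKM in SA (mean 0.0724 ± 0.0961) and 0.04 to 0.106 in MA (mean 0.0812 ± 0.0246), with an exact permutation p of 0.818. Their medians were 0.149 in SA and 0.21 in MA for Nr4a2, and 0.0453 and 0.0841 for Nr4a3. The groups overlapped throughout for both genes.

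The low values allow an estimate of the depth behind them. Within a library the FPKM of a gene are whole multiples of the worth of 1 fragment, and 95.9% to 100% of the low genes compared between libraries came out whole within 0.05. Under the assumption that the smallest step of a gene is 1 fragment, which sets every fragment number given here, and with striatum SA library 0 set to 1, the relative depth was 0.888 to 1.2 in the striatum and 0.285 to 0.596 in the whisker follicle. Nr4a1 rested on about 217 to 2749 fragments per striatum library and on 5 to 80 per whisker library. For Nr4a2 the numbers were 15 to 175 and 0 to 10, and for Nr4a3 45 to 756 and 0 to 6. Nr4a3 was at or under 3 fragments in 5 of 6 SA and 6 of 6 MA whisker libraries, and Nr4a2 in 4 of 6 of each group. The comparison of MA with SA in this tissue thus rested on 12 against 10 fragments in all for Nr4a3 and on 23 against 16 for Nr4a2.

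Of 31 rapid response genes 28 were tested in the whisker follicle, and 23 lay above 0 with a median of 0.24 on the log2(FPKM + 1) scale, against -0.01 over all genes of the tissue. None was called, 4 had an unadjusted p under 0.05 with the higher value in MA (14.3% of the list, against 5.25% of all genes) and 1 with the lower. The lower was Egr2, at 20 ± 2.76 FPKM in SA and 14.7 ± 1.79 in MA, the gene most like Nr4a1 in the striatum. Per1 was 4.38 ± 2.51 and 8.72 ± 3.68, Klf4, a factor of epithelial differentiation, 116 ± 40.5 and 158 ± 18.4, and Klf2 1.46 ± 0.81 and 3.25 ± 1.43 (± SD, 6 libraries each). The limma adjusted p was 0.465 for all 4. Without SA library 0, 24 of the 28 lay above 0 (median 0.32), 13 had an unadjusted p under 0.05 with the higher value in MA and 8 were called. Over all genes of that fit, 3604 of 9059 had an unadjusted p under 0.05 in either direction, and 13.5% were called. The first of these counts holds both directions, unlike the 13 of the list. The genes most like Nr4a1 over the 12 whisker libraries were Fem1b (r 0.892), Dpy19l1 (0.89), Cd276 (0.88), Large (0.862) and Dbn1 (0.861), none of them among the 5 of the striatum, and for Nr4a2 and Nr4a3 the few fragments make such a list a poor guide.

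With all 12 whisker libraries the further lists held 0 called genes. Other nuclear receptors lay above 0 in 9 of 15 (median 0.08 on the log2 scale), with Nr2c1 at 3.6 ± 0.853 FPKM in SA and 4.7 ± 0.617 in MA and the thyroid hormone receptor Thrb at 5.46 ± 3.48 and 8.61 ± 3. Of these 15, 3 had an unadjusted p under 0.05, all higher in MA, or 20%, against 5.25% of all genes of the tissue. The factors upstream lay above 0 in 10 of 17 (median 0.07, 0 with an unadjusted p under 0.05). Without SA library 0, 2 of the 15 receptors, 1 of the 17 upstream factors and 3 of 9 glucocorticoid-induced genes were called. Over all genes of that fit 13.5% were called. Ddit4 and Nfkbia, of the glucocorticoid-induced genes, had all 6 MA libraries above every SA library, as 0.197% of the genes of the tissue did, at 65.6 ± 9.25 and 103 ± 25.3 FPKM for Ddit4 and 28.8 ± 3.02 and 47.3 ± 12.5 for Nfkbia (limma adjusted p = 0.465, SD, n = 6 each). Of 8 hair follicle markers 7 lay above 0 and 0 were called. An unadjusted p under 0.05 was found for 2, both higher in MA (25%, against 5.25% of all genes of the tissue). The summed FPKM of the hair follicle markers was 27981 to 75216 in SA and 39823 to 80157 in MA, and their part in these values was not tested.

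All 3 receptors were higher in the striatum than in the whisker follicle. The ratio of the mean FPKM was 13.3 for Nr4a1, 7.4 for Nr4a2 and 16.5 for Nr4a3 in SA rats, and 25.9, 3.63 and 82.2 in MA rats, the ratios of Nr4a2 and Nr4a3 resting on few whisker fragments. Every striatum library lay above every whisker library for Nr4a1 and Nr4a3 in both treatments and for Nr4a2 in MA, while for Nr4a2 in SA 3 of 6 striatum libraries did. In limma over all 24 libraries all 3 were called in both treatments. The background is large, since 75.3% of the 11533 genes tested were called in SA and 73% in MA, and 43.8% and 42.4% were called with the higher value in the striatum. Every striatum library lay above every whisker library for 39.5% of genes in SA and 42% in MA.

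The differences between tissues in SA rats were 2.73 (SE 0.39, adjusted p = 5.49e-07) for Nr4a1, 0.82 (SE 0.24, adjusted p = 0.00262) for Nr4a2 and 0.99 (SE 0.29, adjusted p = 0.00296) for Nr4a3 by limma on the log2(FPKM + 1) scale. In MA rats they were 3.93, 0.59 and 2.6, with adjusted p of 1.24e-09, 0.0233 and 1.1e-08. The median over all genes was 0.30 higher in the striatum in SA and 0.26 in MA. With a common median instead it was -0.15 in both, and with quantile normalization -0.07 and -0.09. Nr4a1 was called under each scaling. Under quantile normalization Nr4a2 was 0.01 in SA and -0.22 in MA, and Nr4a3 was 0.19 in SA (adjusted p = 0.566) and 1.85 in MA (adjusted p = 7.52e-06).

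The effect of MA was compared between the tissues as an interaction over the 24 libraries, which treats the libraries as independent although both tissues came from the same rats. It was 1.61 (SE 0.41, adjusted p = 0.292) for Nr4a3, 1.19 (SE 0.55, adjusted p = 0.441) for Nr4a1 and -0.22 (SE 0.33, adjusted p = 0.786) for Nr4a2, on the log2(FPKM + 1) scale. None was called in limma, and 0.00867% of the genes were. Without striatum MA library 5 Nr4a3 was called, with 1.97 and an adjusted p of 0.000242, in a fit that called 0.0521% of genes. Without whisker SA library 0 it was called with 1.56 and 0.0214, and 10.8% of all genes were called as well. With weighted libraries Nr4a3 and Nr4a1 were both called, with adjusted p of 0.00376 and 0.0157, among 12% of all genes.

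Nr4a1 made up most of the summed FPKM of the family in every library. Nr4a1 took a median of 85.5% of the summed FPKM of the 3 genes in SA striatum (73.6% to 94.5%) and 86% in MA striatum (83.4% to 88.4%). The share of Nr4a3 was 9.04% in SA and 11.9% in MA at the median, and that of Nr4a2 was 4.33% and 1.72%. In MA libraries 0 to 4 the Nr4a2 share, 0.727% to 2.42%, lay under the lowest SA share of 2.9%, and in MA library 5 it was 8.07%. The sum holds Nr4a1 and Nr4a3, so the Nr4a2 share falls where these rise and is not a separate result. The median FPKM of Nr4a2 itself was 0.659 in SA striatum and 0.816 in MA striatum. The Nr4a3 share reached 14.1% in MA and 11.3% in SA. The low Nr4a1 shares in SA came from library 1, with 17.6% Nr4a2, and from library 4. In the whisker follicle Nr4a1 took 84.1% in SA and 85% in MA at the median, over a wider range of 59.8% to 100% that goes with the few fragments.

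**Figure D5:**
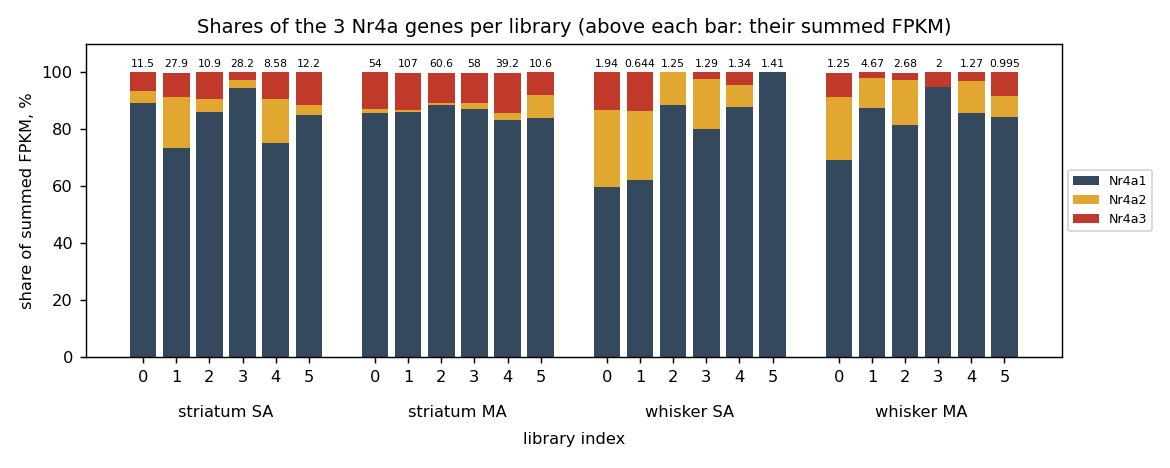
Share of each Nr4a gene in their summed FPKM for the 24 libraries, with the sum printed above each bar and the library index below. Nr4a1 makes up most of the sum in every library, 59.8% to 100%, and striatum SA library 1 has the largest striatal share of Nr4a2 (17.6%).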

How the data were processed

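RNA-seq of 24 libraries (6 for each treatment and tissue) was analysed from 1 table of FPKM values, which the authors computed and deposited. For trimming, alignment to rn6 and quantification the paper cites Cutadapt, TopHat2 and Cufflinks, whereas the notes of the submitters list bcl2fastq with STAR 2.6.0c, Cufflinks 2.2.1 and the build rn6. Which annotation was used, and whether libraries were scaled to each other, is not given in the sources used here. Fragment numbers were estimated from the steps of low FPKM values, and intervals from them were not taken.

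For each tissue, SA and MA libraries entered a fit in limma 3.58.1 (R 4.3.3) with moderated variances that follow an intensity trend, on log2(FPKM + 1) over the genes that averaged 1 FPKM or more, and the tissues and the interaction over genes that pass in either tissue. A gene was called where its fold on that scale was at least 1.5 and its p, adjusted by the Benjamini-Hochberg method, was under 0.05. Single members were compared by exact two-sided permutation tests, whose p was not adjusted over genes. The smallest p that 6 against 6 allows is 0.00216. Columns carry an index not tied to a rat, so libraries were unnumbered replicates and the tissues of a rat were not paired.

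The members, the gene lists and the tests were chosen with earlier results of these data known. Named genes are the 3 members, up to 4 members of each list described with the smallest limma p, and the 5 genes most like each member. Slc17a6, Neurod6 and Tbr1 were chosen after their values were seen. The neuron-marker alternatives, the sets of libraries left out together and the correlations within groups were chosen after the data were seen.

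Alternatives were pseudocounts of 0.1 and 0.5, no filter or a mean FPKM of 5, weighted libraries, no trend, scaling to a common median, quantile normalization and leaving out each library. Promoters were taken from a RefSeq table of the GRCr8 assembly, which held 2 of the 3 members.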

Additional observations from a re-analysis of the deposited data

Results flagged for a closer look

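Each member was screened in each of the 4 groups of 6 libraries for a library far from the others, 12 groups in all, by Dixon's ratio of the gap to the range. The ratio was taken on FPKM and not on the log2 scale of the fits. Chance flags about 1 in 20 groups where values are normally distributed, which was not checked here. In SA striatum, library 1 was far above the others for Nr4a2, at 4.92 FPKM against 0.462 to 1.32, and it is the library with 39.9 FPKM of Slc17a7. In SA whisker follicle, library 1 was far below the others for Nr4a1, at 0.401 FPKM, a value of about 5 fragments. In the same group, library 0 was far above the others for Nr4a3, at 0.256 FPKM, a value of about 6 fragments. MA library 5 of the striatum, which decides whether Nr4a3 is called, was not flagged by this screen for any member. Its ratio was 0.287 for Nr4a1 and 0.36 for Nr4a3, against a critical value of 0.625. High values such as the 13.9 FPKM of Nr4a3 in MA library 1 widen the range and lower this ratio, and the log2 scale was not screened.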

How the results depend on the processing

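In the striatum, Nr4a1 and Nr4a3 were higher in MA under every alternative fitted. Leaving out single libraries gave 1.33 to 1.98 on the log2 scale for Nr4a1, 1.38 to 1.99 for Nr4a3 and -0.276 to 0.128 for Nr4a2, the last by the exact permutation test without SA library 1. Nr4a3 was called without MA library 5 (1.99), and Nr4a1 was called at 2.19 without the 4 libraries lowest in medium spiny markers. These 4 include the MA libraries lowest in both genes. In the whisker follicle the ranges were 0.194 (without MA library 1) to 0.488 for Nr4a1, -0.00886 to 0.123 for Nr4a2 and -0.00332 to 0.0624 for Nr4a3. The lowest Nr4a2 value came without MA library 1, the lowest Nr4a3 value without SA library 2 or 5, and the highest without SA library 0 (exact permutation p = 0.0455). These values rest on 0 to 10 fragments per library.

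For the interaction, weighted libraries gave 1.62 (Nr4a1) and 1.67 (Nr4a3), both called, and leaving out single libraries gave 1.37 to 1.97 for Nr4a3, called without striatum MA library 5 and without whisker SA library 0. Between the tissues, quantile normalization gave 0.0112 for Nr4a2 and 0.194 for Nr4a3 in SA and -0.216 for Nr4a2 in MA, none called. In MA the Nr4a2 difference was also not called with a common median (0.45, adjusted p = 0.0656) or weighted libraries (0.477, adjusted p = 0.0778), and over single libraries left out it was 0.534 to 0.65, with the call lost without striatum MA library 3 or 4 or whisker MA library 3, 4 or 5. The cause was not tested. The glucocorticoid-induced list had a median of 0.0408 without striatum MA libraries 3 and 4. The number of genes called in the whisker follicle was 0 with all libraries, 1219 without SA library 0 and 1160 with weighted libraries, and for the interaction it was 1, 1241 and 1380. No other alternative changed a call or direction of a member.

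A filter at a mean FPKM of 5 left only Nr4a1 to test, and Nr4a2 could not be fitted in limma without striatum SA library 1. No paired analysis was possible because the columns carry an index that the labels do not tie to a rat. The few fragments of Nr4a2 and Nr4a3 limit their values in the whisker follicle.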
